A study of Mus musculus with 12 samples.

Results

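The genes described here encode 9 secreted cytokines or cytokine subunits of the interleukin-6 and interleukin-12 families and the related interleukin-15: Il6, Lif, Osm, Il12a, Il12b, Il23a, Il27, Ebi3 and Il15. They were chosen by mouse gene symbol and make up 9 of the 54532 genes in the deposited table. The cells were wild-type mouse bone-marrow-derived macrophages, grown with CMG as the source of M-CSF, and osteoclasts, the multinucleated bone-resorbing cells that RANKL induces in such cultures. Both were sampled on day 5, untreated or after 3 h with 100 ng/mL lipopolysaccharide (LPS, a bacterial cell-wall component sensed by Toll-like receptor 4), which gave 4 groups of 3 libraries: untreated macrophages, LPS-treated macrophages, untreated osteoclasts and LPS-treated osteoclasts. The sample source gives RANKL at 100 ng/mL for osteoclasts, while the growth protocol gives a range of which this is the upper end, and macrophages received none. The labels do not say whether the 3 replicates came from separate animals or cultures, so p-values measure only the spread between these libraries.

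IL-6, LIF and oncostatin M signal through receptors that share the gp130 chain (Il6st). They act on bone in part by changing RANKL production in osteoblast-lineage cells. The IL-12 family is built of paired chains: p40 (Il12b) joins p35 (Il12a) to make IL-12 or p19 (Il23a) to make IL-23, and EBI3 joins p28 (Il27) to make IL-27. IL-15 is a four-helix cytokine that is presented on its own receptor chain, Il15ra, to lymphocytes and natural killer cells.

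Libraries held 15651770 to 20281456 reads assigned to genes. Levels are given as FPKM, fragments per kilobase of gene scaled per library to the typical gene, so they can be compared between genes and a change is relative to the typical gene. The summed FPKM of 8 macrophage markers was 1506.5 to 1523.7 in untreated and 2428.3 to 2506.7 in LPS-treated macrophages, against 372.7 to 377.6 and 391.7 to 429.3 in untreated and LPS-treated osteoclasts. That of 10 osteoclast markers, such as Ctsk and Acp5, was 16.3 to 29 over the macrophage libraries and 29220.3 to 32220.2 over the osteoclast libraries, so the labels and the markers matched. Differences below are on the log2(FPKM + 1) scale from limma, with Benjamini-Hochberg adjustment over the 11335 genes that reached 1 FPKM in at least 3 libraries, and a gene was called at an adjusted p under 0.05. Folds are ratios of mean FPKM, and where a group had no reads they were taken against 3 reads per library and are lower bounds. The change of the macrophage markers with LPS in macrophages depended on the scaling. Their median difference was 0.25 as deposited and -0.39 after every library was rescaled to the same total.

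Start-site windows from RefSeq were matched by symbol for 5 of the 9 genes, Il6, Il12a, Il12b, Ebi3 and Lif. The 250 bases before the start site are printed for Il6, Il12b and Ebi3, which LPS raised in both cell types, and for Lif, the gene with the opposite order between cell types, on the plus strand of GRCm38.p6, the strand of each gene. Capitals mark matches to the NF-kB consensus or to its shorter form GGGANTT, on either strand, and the same letters can match both motifs. The windows are chr5:30012864-30013113 for Il6, chr11:44399813-44400062 for Il12b, chr17:55952373-55952622 for Ebi3 and chr11:4257318-4257567 for Lif.
Il6: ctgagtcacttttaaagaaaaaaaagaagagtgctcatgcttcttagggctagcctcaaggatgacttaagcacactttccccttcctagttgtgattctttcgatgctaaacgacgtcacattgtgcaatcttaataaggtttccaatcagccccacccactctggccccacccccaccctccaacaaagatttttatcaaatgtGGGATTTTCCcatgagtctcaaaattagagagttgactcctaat
Il12b: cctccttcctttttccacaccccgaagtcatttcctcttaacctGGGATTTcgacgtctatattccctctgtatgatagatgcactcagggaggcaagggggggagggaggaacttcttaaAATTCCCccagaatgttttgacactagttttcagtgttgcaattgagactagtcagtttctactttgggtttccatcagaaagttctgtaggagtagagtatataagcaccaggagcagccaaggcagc
Ebi3: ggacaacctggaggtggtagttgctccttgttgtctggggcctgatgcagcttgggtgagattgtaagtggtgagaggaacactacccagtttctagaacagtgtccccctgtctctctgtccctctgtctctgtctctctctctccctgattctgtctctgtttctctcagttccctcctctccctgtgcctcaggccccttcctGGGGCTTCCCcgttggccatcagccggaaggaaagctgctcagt
Lif: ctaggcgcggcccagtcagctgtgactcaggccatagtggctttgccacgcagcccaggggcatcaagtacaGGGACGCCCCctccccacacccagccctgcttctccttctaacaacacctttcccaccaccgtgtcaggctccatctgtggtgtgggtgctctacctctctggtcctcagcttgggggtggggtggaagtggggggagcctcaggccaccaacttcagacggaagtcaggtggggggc
The NF-kB consensus was matched at -44 to -35 from the start site in Il6 and, at the same distance, in Ebi3. In Lif it was matched at -178 to -169. The Il12b window had no match to the full consensus and held GGGANTT at -206 to -200 and, on the other strand, at -129 to -123. Of all 32851 RefSeq windows of this length, 7.25% held the consensus and 14.4% held GGGANTT. The Il6 window also held the C/EBP motif TTGCNNAA at -128 to -121, found in 9.56% of windows, the AP-1 motif TGANTCA at -249 to -243, found in 6.75%, and the half-site TGACGT at -136 to -131, found in 6.47%. The AP-1 motif was matched in Lif too, at -228 to -222. The PU.1 core GAGGAA, present in 23.3% of windows, was matched in Il12b at -219 to -214 and -143 to -138 and in Ebi3 at -176 to -171. The interferon-stimulated response element, whose consensus matched 2.98% of windows, was found in none of the 4 printed. These are matches of letters, and binding was not measured.

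In macrophages, 7 of the 7 cytokine genes that could be tested were higher with LPS (adjusted p from 3.66e-13 to 8.22e-04), where 69.9% of all genes tested were called, 36.8% higher and 33.1% lower. In osteoclasts 5 of 7 were called higher, Il6, Il12b, Il27, Ebi3 and Il15, and none lower, where 17.7% of all genes were called, 11.1% higher and 6.59% lower. Lif and Osm did not pass in osteoclasts. Treated and untreated libraries of the 7 tested genes did not overlap in macrophages or in osteoclasts, which held for 74.0% and 34.0% of all genes tested. The median difference over the 7 genes was 5.63 in macrophages and 1.87 in osteoclasts, beside 0.02 and 0.01 over all genes tested. Il6, Il12b and Il27 reached the level needed for the test only through their LPS-treated libraries, the groups in which they are high, so their LPS tests and these counts describe the genes and carry no weight of their own. Il12a and Il23a stayed under 1 FPKM in every library and were not tested. In bulk RNA, fewer cells of a type and less RNA per cell cannot be told apart, which holds for every difference between osteoclast and macrophage libraries given here.

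**Figure D1:**
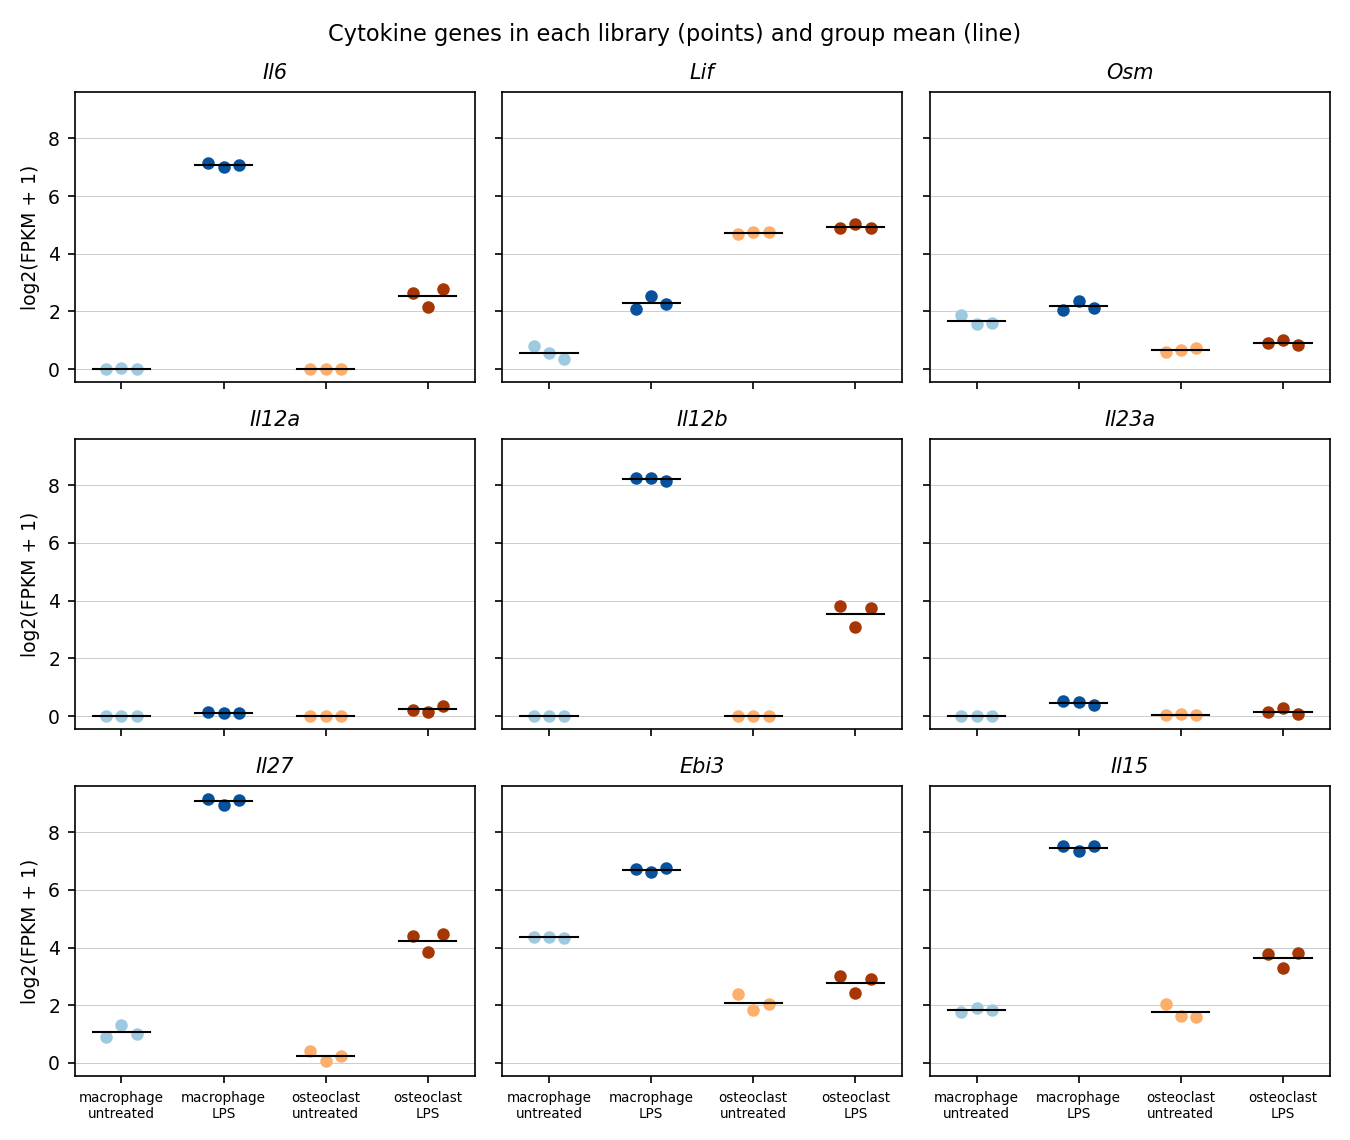
Level of each of the 9 cytokine genes as log2(FPKM + 1) on the vertical axis, with 1 point per library and a line at the mean of the 3 libraries of a group. The LPS-treated macrophages stand highest for Il6, Il12b, Il27, Ebi3 and Il15, the osteoclasts stand highest for Lif, and Il12a and Il23a stay near 0 throughout.

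Il6, which lies at chr5:30013114-30019981 (GRCm38), was close to silent without LPS. It was listed at 0, 0.035 and 0 FPKM in untreated macrophages, which is 2 reads in all, and at 0 in the 3 untreated osteoclast libraries. With LPS it stood at 139.6, 126.9 and 133.6 FPKM in macrophages and at 5.22, 3.45 and 5.91 FPKM in osteoclasts. Every LPS-treated library was above every untreated one, and the LPS-treated groups of the cell types did not overlap. The LPS effect was 7.05 in macrophages (SE 0.12, adjusted p = 3.66e-13) and 2.53 in osteoclasts (SE 0.12, adjusted p = 4.55e-08). As a ratio this was 11431-fold in macrophages, with an exact 95% counting interval of 3165 to 94393 set by the 2 untreated reads, and at least 68.5-fold in osteoclasts. Both of those reads were in untreated macrophage replicate 2, and without it the macrophage fold was a lower bound, at least 2449-fold. With LPS the osteoclasts were 27.4-fold lower than the macrophages (difference -4.54, adjusted p = 5.68e-12), and the difference of LPS effects was -4.53 (SE 0.17, adjusted p = 1.12e-09). With almost no untreated reads, the latter value repeats the former.

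Lif, a gp130 cytokine with roles in stem cells and in bone remodelling, was the only one of the 7 tested genes that was higher in osteoclasts. It lies at chr11:4257557-4272514. Its level was 0.754, 0.489 and 0.268 FPKM in untreated macrophages and 3.26, 4.84 and 3.83 FPKM after LPS. Untreated osteoclasts held 24.5, 25.9 and 25.9 FPKM and LPS-treated ones 28.5, 32 and 28.5 FPKM. Every osteoclast library, treated or not, was above every macrophage library. Without LPS the osteoclasts were 50.5-fold higher (difference 4.15, adjusted p = 1.75e-11), and with LPS 7.46-fold higher (difference 2.63, adjusted p = 7.34e-10). LPS raised Lif 7.89-fold in macrophages (1.73, SE 0.12, adjusted p = 8.52e-08). In osteoclasts the groups did not overlap either, but the difference of 0.21 (95% interval -0.06 to 0.48) did not pass (adjusted p = 0.271), and a test on the recovered reads with limma's voom called it at 0.22 (adjusted p = 0.0438). The LPS effects differed by -1.51 between the cell types (SE 0.17, adjusted p = 1.25e-05), and by -2.76 as a log2 ratio of mean FPKM, a scale on which the low macrophage values are not compressed. From high to low the order was LPS-treated osteoclasts, untreated osteoclasts, LPS-treated macrophages and untreated macrophages, in which the osteoclast groups did not differ by the test and the middle pair was not tested but did not overlap.

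Osm, the gene of oncostatin M, ends 16530 bases before Lif starts on chromosome 11 (chr11:4236420-4241026), with no annotated gene lying wholly between. The neighbours had opposite orders between the cell types. Osm stood at 2.66, 1.97 and 2.06 FPKM in untreated macrophages and at 3.14, 4.19 and 3.35 FPKM with LPS. In osteoclasts it stood at 0.525, 0.573 and 0.673 FPKM untreated and at 0.889, 0.999 and 0.796 FPKM with LPS. Osteoclasts were lower without LPS (-1.02, 3.77-fold, adjusted p = 1.42e-06) and with it (-1.26, 3.98-fold, adjusted p = 1.41e-07), and no osteoclast library reached a macrophage library. Only macrophage libraries, where Osm is high, reached the level needed for its test, so these calls describe the gene. The LPS effect was 0.50 in macrophages (SE 0.10, adjusted p = 8.22e-04), a call that was lost when the values were rescaled to TPM, which gives every library the same total (0.03, adjusted p = 0.859). In osteoclasts it was 0.25 (adjusted p = 0.111), and with a pseudocount of 0.1 in place of 1 it was called at 0.53 (adjusted p = 0.0346). The LPS effects of the cell types differed by -0.25 (95% interval -0.56 to 0.07, adjusted p = 0.165), and this difference was 0.33 in TPM and -0.37, then called, after quantile normalization.

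Among the IL-12 chains, the shared p40 chain was abundant after LPS while its partners were not. Il12b (chr11:44400063-44414033) had no read in any of the 6 untreated libraries, macrophage or osteoclast. After LPS it reached 303.3, 307.6 and 280.6 FPKM in macrophages and 13.2, 7.49 and 12.3 FPKM in osteoclasts. The LPS effect was 8.22 in macrophages (SE 0.15, adjusted p = 3.98e-13), which is at least 4476.9-fold, and 3.55 in osteoclasts (adjusted p = 1.17e-08), at least 125.6-fold. LPS-treated osteoclasts were 27-fold below LPS-treated macrophages, with no overlap (-4.67, adjusted p = 1.88e-11), and the LPS effects differed by -4.67 (SE 0.21, adjusted p = 3.20e-09). With no untreated reads, the latter value repeats the former.

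Il12a, the p35 chain at chr3:68690644-68698547, had no read in the untreated libraries and 2, 2 and 2 reads in the LPS-treated macrophages, where Il12b had 7616, 9031 and 7757. LPS-treated osteoclasts held 5, 3 and 8 reads of Il12a, or 0.148, 0.114 and 0.258 FPKM. Osteoclasts were thus not below macrophages for this chain. With no filter on low values, over 25854 genes, limma called the LPS effect in both cell types (0.12, adjusted p = 0.0268 in macrophages and 0.23, adjusted p = 0.00345 in osteoclasts) and the higher level in LPS-treated osteoclasts (0.11, adjusted p = 0.0269). The difference of LPS effects did not pass (0.11, adjusted p = 0.159). At these read numbers the values are near the limit of 3 reads per library that a count of 0 allows.

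Il23a, the p19 chain at chr10:128296139-128298752, had no read in untreated macrophages and 12, 13 and 10 reads with LPS, at least 6.44-fold. Osteoclasts held 1, 2 and 1 reads untreated and 4, 7 and 2 with LPS, so the osteoclast groups overlapped. With no filter, the LPS effect was 0.46 in macrophages (adjusted p = 1.70e-05) and 0.10 in osteoclasts (adjusted p = 0.287). Il23a was then called lower in LPS-treated osteoclasts than in LPS-treated macrophages (-0.31, adjusted p = 2.41e-04), and so was the difference of LPS effects (-0.35, adjusted p = 0.00220). In LPS-treated macrophages the FPKM of Il12b was 725.0, 793.6 and 886.1 times that of Il23a in replicates 1 to 3. In LPS-treated osteoclasts it was 147, 37 and 252 times in replicates 1 to 3, resting on 4, 7 and 2 reads of Il23a. The exact 95% counting intervals of these ratios were 57.1 to 542, 17.7 to 93.1 and 69.4 to 2088.

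The chains of IL-27 were both detected, with different levels before LPS. Il27 (chr7:126589010-126594941), the p28 chain, stood at 0.845, 1.5 and 1.01 FPKM in untreated macrophages and at 568.1, 495.7 and 549.7 FPKM with LPS, the highest mean of the 9 genes in that group. Untreated osteoclasts held 0.318, 0.058 and 0.173 FPKM, which is 10 reads in all, and LPS-treated ones 19.9, 13.4 and 21.2 FPKM. LPS raised it 480.7-fold in macrophages (8.0, SE 0.16, adjusted p = 8.44e-13) and 99.3-fold in osteoclasts (4.00, adjusted p = 7.86e-09). The osteoclast fold rests on 6, 1 and 3 untreated reads and was 157-fold without untreated osteoclast replicate 1. Osteoclasts were lower without LPS (-0.83, adjusted p = 3.81e-04) and 29.6-fold lower with it (-4.84, adjusted p = 2.71e-11). The LPS effects differed by -4.00 (SE 0.22, adjusted p = 2.30e-08). That difference was -2.28 as a log2 ratio of means and -1.61 on that scale without untreated osteoclast replicate 1, -2.72 with a pseudocount of 0.1 and -2.92 in TPM. Of the 1021 exon bases of Il27, 103 (10.1%) also belong to Apobr on the other strand, and whether reads were assigned by strand is not given in the sources used here. Apobr was at 25 ± 0.658 and 70.8 ± 0.95 FPKM in untreated and LPS-treated macrophages (SD, n = 3) and at 45.9 ± 3.41 and 46.1 ± 1.92 FPKM in osteoclasts.

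Ebi3 (chr17:55952640-55957022), the other chain of IL-27, was already present in untreated macrophages at 19.4, 19.7 and 19.2 FPKM, and LPS brought it to 104.7, 97 and 108.3 FPKM. In osteoclasts it stood at 4.23, 2.56 and 3.16 FPKM untreated and at 7, 4.38 and 6.46 FPKM with LPS. No osteoclast library, even with LPS, reached the untreated macrophages. The LPS effect was 2.35 in macrophages (SE 0.15, 5.32-fold, adjusted p = 2.62e-08) and 0.68 in osteoclasts (SE 0.15, 1.79-fold, adjusted p = 0.00701). The osteoclast call was lost when only these 2 groups were fitted (adjusted p = 0.0689). Osteoclasts were lower without LPS (-2.26, 5.86-fold, adjusted p = 2.54e-08) and with it (-3.93, 17.4-fold, adjusted p = 1.01e-10), and the LPS effects differed by -1.67 (adjusted p = 2.65e-05), or by -1.03 in TPM. Of the 1154 exon bases of Ebi3, 270 (23.4%) are shared with the opposite-strand gene Gm16712, whose mean was 0.585 and 7.82 FPKM in untreated and LPS-treated macrophages and 0.18 and 0.482 FPKM in osteoclasts. The ratio of Il27 to Ebi3 was 0.0436, 0.0762 and 0.0527 in untreated macrophages and 5.43, 5.11 and 5.08 with LPS. In LPS-treated osteoclasts it was 2.85, 3.06 and 3.28, so Il27 exceeded Ebi3 in every LPS-treated library of either cell type.

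Il15 (chr8:82331632-82403222) was expressed at like levels in the untreated cell types, at 2.42, 2.71 and 2.58 FPKM in macrophages and 3.12, 2.12 and 2 FPKM in osteoclasts, and these ranges overlapped. With LPS it reached 184.5, 163.2 and 181.3 FPKM in macrophages and 12.6, 8.89 and 13.1 FPKM in osteoclasts. It rose 68.6-fold in macrophages (5.63, SE 0.14, adjusted p = 5.01e-12) and 4.78-fold in osteoclasts (1.87, adjusted p = 1.52e-06). The untreated groups differed by -0.08 (adjusted p = 0.613). After rescaling to TPM that value was -0.48 and was called (adjusted p = 0.0104), while it was 0.06 after quantile normalization and 0.01 without untreated osteoclast replicate 3. With LPS the osteoclasts were 15.3-fold lower (-3.84, adjusted p = 6.64e-11), and the LPS effects differed by -3.76 (SE 0.19, adjusted p = 1.25e-08).

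**Figure D2:**
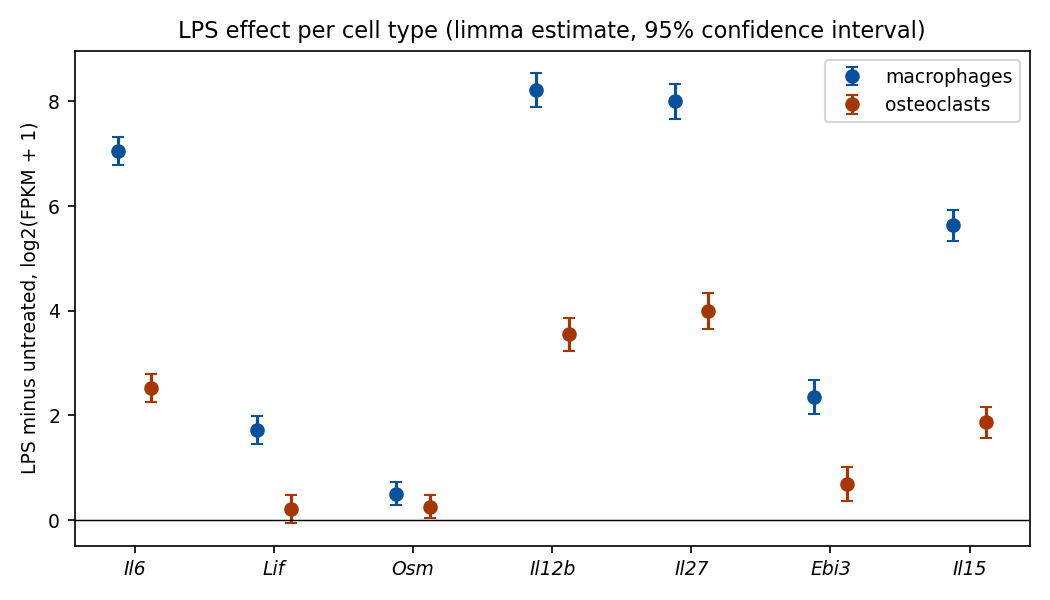
LPS effect on the 7 tested cytokine genes as the limma difference in log2(FPKM + 1), treated minus untreated, with 95% confidence intervals, in macrophages and in osteoclasts. The macrophage estimate is the higher for each gene, though for Osm this order was reversed in TPM, and the intervals of the cell types overlap for Osm.

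A pseudocount of 1 compresses differences of low values. With 0.1 the LPS effect in osteoclasts was 5.60 for Il6, 6.75 for Il12b and 6.10 for Il27, and that of Lif in macrophages was 2.82. The difference between untreated cell types was then -2.18 for Il27 and -1.75 for Osm. Each of these stayed called, in the direction given above.

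Between cell types without LPS, 4 of the 7 tested genes were called: Lif higher in osteoclasts and Il27, Ebi3 and Osm lower. Of all genes tested, 77.8% were called in this comparison, 38.8% higher and 39.0% lower. The libraries of the cell types did not overlap for these 4 genes and for 81.4% of all genes tested. With LPS 7 of 7 were called, Lif higher and the other six lower, where 83.9% of all genes were called, 40.9% higher and 43.0% lower. The LPS-treated libraries of the cell types did not overlap for 7 of 7 and for 83.6% of all genes tested. The median difference of the members was -0.08 without LPS and -3.93 with it, beside 0.00 and -0.02 over all genes. Without LPS, Il12b had no read and Il6 almost none in either cell type. Their differences there could only lie near 0, and both are in the count and the median without LPS. The difference of LPS effects was called below 0 for 6 of 7, with Osm the exception, where 56.6% of all genes were called, 30.0% below 0 and 26.6% above. Il6, Il12b and Il27 are in the counts with LPS and of LPS effects although LPS-treated libraries alone brought them into the test. Osm, counted lower in osteoclasts without and with LPS, entered the test only through macrophage libraries, the cell type in which it is high. These counts, too, are therefore only a description. All of these comparisons share their groups, so they are not independent of each other.

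Relative to the mean of LPS-treated macrophages, LPS-treated osteoclasts in replicates 1, 2 and 3 held 3.91%, 2.58% and 4.43% of the Il6 level. For Il12b the shares were 4.45%, 2.52% and 4.13%, and for Il27 they were 3.71%, 2.49% and 3.94%. Ebi3 stood at 6.78%, 4.24% and 6.25% and Il15 at 7.16%, 5.04% and 7.41%. Replicate 2 was the lowest for each of these 5 genes, while for Osm (25%, 28.1% and 22.4%) and Lif (715.9%, 804.8% and 716.5%) it was the highest. Macrophage markers measured in the same libraries gave 10.9%, 6.35% and 10.6% for Adgre1, the F4/80 antigen, and 7.01%, 4.39% and 6.02% for the LPS co-receptor Cd14. They gave 0.976%, 0.472% and 0.994% for the mannose receptor Mrc1, and 68%, 72.2% and 68.7% for Csf1r, the M-CSF receptor. Replicate 2 was thus also the lowest for Adgre1, Cd14 and Mrc1, and the same held for Cx3cr1, Itgam, Fcgr1 and Mertk, but not for Csf1r. The part of remaining macrophage-like cells in the osteoclast values was not tested. Without LPS-treated osteoclast replicate 2, or any other library left out in turn, each of the 5 genes stayed higher with LPS in osteoclasts, with differences of 2.39 to 2.71 for Il6, 3.41 to 3.78 for Il12b, 3.88 to 4.19 for Il27, 0.55 to 0.86 for Ebi3 and 1.78 to 2.03 for Il15.

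**Figure D3:**
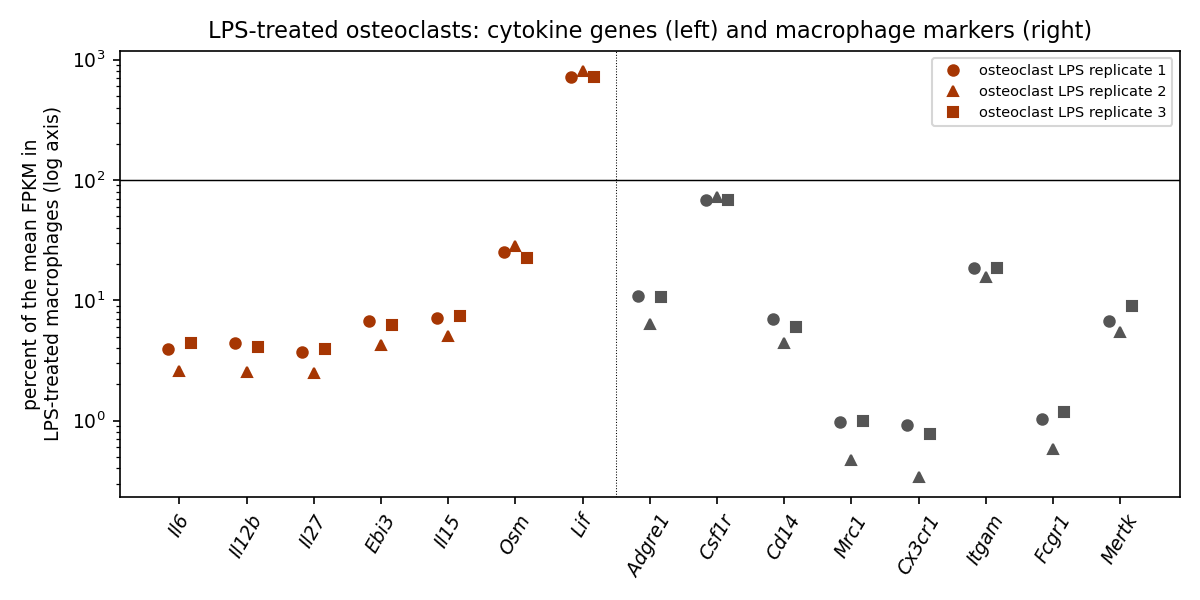
Level of 7 cytokine genes (left) and 8 macrophage markers (right) in each LPS-treated osteoclast library, as a percent of the mean FPKM in LPS-treated macrophages, on a log axis; the line marks 100%. Replicate 2 (triangles) is the lowest for Il6, Il12b, Il27, Ebi3 and Il15 and for every marker but Csf1r, and Lif alone lies above 100%.

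Markers of other cell types were measured beside the cytokines. The summed FPKM of 6 dendritic cell markers was 5.62 to 6.39 in LPS-treated macrophages and 1.84 or less in every other group. Xcr1 alone, at a mean of 5.31 FPKM, made up most of the former, while Zbtb46 was at 0.0814 and 0.197 FPKM in untreated and LPS-treated macrophages and at 0.546 and 1.01 FPKM in osteoclasts. The sum of 8 neutrophil markers was 5.62 to 8.04 in untreated and 6.88 to 16.4 in LPS-treated macrophages. Of the 3 tested, 2 were called higher with LPS in macrophages, a direction called for 36.8% of all genes. That number was 0 in TPM and 3 after quantile normalization. In osteoclasts the neutrophil sum reached 1.88, with Ly6g, Elane and Mpo at 0 in LPS-treated osteoclasts. That of 7 stromal and osteoblast markers was 24.8 to 34.7 over the macrophage libraries and 0.103 to 0.612 over the osteoclast libraries, where Lif was high. Most of the macrophage sum came from Col1a1, at a mean of 19.9 FPKM untreated and 21.5 FPKM with LPS, and Col1a2, at 8.59 and 9.46 FPKM, levels above those of Lif and Osm in the same groups. The sum of 8 T, B and NK cell markers was 0.782 or less in every library, and that of 3 mast cell and basophil markers 0.379 or less. The part of such cells in the cytokine levels was not tested.

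Of 7 further ligands of the IL-6 and IL-12 families only Clcf1, another gp130 ligand, could be tested. It rose in macrophages with LPS, from a mean of 0.302 to 2.66 FPKM (1.49, adjusted p = 3.33e-07), the group that alone brought it into the test, and stood at 0.461 and 0.454 FPKM in osteoclasts without and with LPS (-0.01, adjusted p = 0.977). The 5 relatives of IL-15 that signal through the common gamma chain, Il2, Il4, Il7, Il9 and Il21, were too low to test.

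Receptor chains for these cytokines changed in both directions. Of 14, 7 were tested; LPS raised 2 and lowered 4 in macrophages, where 69.9% of all genes tested were called, and raised 2 in osteoclasts, where 17.7% were, and after quantile normalization 3 were raised and 3 lowered in macrophages. The median difference of the 7 with LPS in macrophages was -0.28 as deposited, -0.91 in TPM and -0.14 after quantile normalization. Of these 7, Il15ra and Il12rb2 were admitted to the test only through LPS-treated libraries. Il15ra, which presents IL-15, rose with its ligand from 0.493 to 19.4 FPKM in macrophages (3.77, adjusted p = 3.37e-12) and from 0.586 to 2.03 FPKM in osteoclasts (0.93, adjusted p = 1.33e-05). Il2rg, the common gamma chain, rose from 5.01 to 27.2 FPKM in macrophages (2.23, adjusted p = 2.08e-09). The ligand-binding IL-6 receptor chain Il6ra fell from 10.4 to 6.36 FPKM in macrophages (-0.63, adjusted p = 5.85e-06) and was lower in untreated osteoclasts, at 3.52 FPKM (-1.34, adjusted p = 3.45e-09). The shared chain Il6st fell in macrophages from 9.78 to 6.79 FPKM (-0.47, adjusted p = 1.18e-06) and was called slightly higher in osteoclasts, from 6.49 to 7.46 FPKM (0.18, adjusted p = 0.0174), a call lost in TPM. The LIF receptor chain Lifr was at 1.07 FPKM in untreated macrophages and 0.0391 FPKM in untreated osteoclasts, the cells in which Lif was high. Osmr, the p40-binding chain Il12rb1 and the IL-23 receptor chain Il23r did not reach the level needed for the test.

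Of genes that carry or restrain the signal of these receptors, 11 of the 11 tested JAK, STAT and feedback genes were called higher with LPS in macrophages, beside 36.8% of all genes, and 6 of 11 in osteoclasts, beside 11.1%, with none lower in either; the macrophage call of Jak3 (0.62) was lost in TPM (0.07, adjusted p = 0.554). The feedback inhibitor Socs3, which binds gp130, rose from 1.18 to 885.9 FPKM in macrophages (8.67, adjusted p = 2.42e-12) and from 0.163 to 13.5 FPKM in osteoclasts (3.58, adjusted p = 9.59e-08). Socs1 rose from 0.18 to 188.0 FPKM (7.32, adjusted p = 1.95e-13) and from 0.281 to 5.52 FPKM (2.33, adjusted p = 5.31e-08). Cish, a feedback gene of STAT5 signalling, rose in macrophages from 0.0925 to 22.9 FPKM (4.45, adjusted p = 6.03e-14) and was at 0.0327 and 0.125 FPKM in osteoclasts (0.12, adjusted p = 0.165). The kinase Jak2 rose from 9.72 to 171.2 FPKM in macrophages (4.00, adjusted p = 9.33e-11) and from 4.11 to 18.5 FPKM in osteoclasts (1.90, adjusted p = 1.33e-06). Socs1 and Cish were admitted to the test only through LPS-treated libraries. With LPS, 11 of 11 were lower in osteoclasts than in macrophages, a direction called for 43.0% of all genes.

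Of 16 transcription factors known at cytokine promoters, LPS raised 13 and lowered none in macrophages, where 36.8% of all genes were higher and 33.1% lower. In osteoclasts it raised 10 and lowered 1, where 11.1% of all genes were higher and 6.59% lower. The number lowered was 3 in TPM in either cell type, and after quantile normalization it was 1 in macrophages and 3 in osteoclasts, with the numbers raised as before. Batf, counted among those raised in both cell types, was admitted to the test only through LPS-treated libraries. Nfkbiz, whose protein IkB-zeta is needed for Il6 and Il12b transcription in macrophages, rose from 3.73 to 265.6 FPKM (5.82, adjusted p = 3.80e-12) and in osteoclasts from 0.324 to 14.7 FPKM (3.54, adjusted p = 7.32e-09). Irf1 rose from 7.17 to 374.6 FPKM (5.52, adjusted p = 9.29e-13) and from 2.6 to 20.6 FPKM (2.57, adjusted p = 1.61e-08). Irf8, a myeloid factor that restrains osteoclast formation, was at 22.7 FPKM in untreated macrophages and 1.08 FPKM in untreated osteoclasts (-3.50, adjusted p = 3.76e-12). LPS raised it to 95.1 FPKM in macrophages, and it stood at 0.745 FPKM in LPS-treated osteoclasts (-0.26, adjusted p = 0.0569).

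Several of the cytokine mRNAs are known targets of decay through AU-rich elements in the 3′ UTR. In the GENCODE M21 transcripts the pentamer ATTTA occurred in the 3′ UTR of 9 of the 9 genes, 5 times in the 285 bases of Il27, 6 times in the 427 bases of Il6 and 7 times in the 3180 bases of Lif. It occurs in 65.8% of the 19125 genes with a 3′ UTR of at least 100 bases. The longer element TTATTTATT, held by 7.43% of those genes, was found in 4 of the 9. Its first site in each is shown in capitals with 8 bases on either side, as the form to which tristetraprolin-type proteins are known to bind.
Il12a: atttatatTTATTTATTttctattt
Il23a: gatgatggTTATTTATTctatttat
Il27: ttggatatTTATTTATTtttaagaa
Lif: aggggcctTTATTTATTatttaaaa
Genes with and without the element were found among those with large LPS effects, Il27 with it and Il6, Il12b and Il15 without. Of 8 factors of cytokine mRNA decay or stability, LPS raised 6 and lowered 2 in macrophages (36.8% and 33.1% of all genes), and raised 5 and lowered 1 in osteoclasts (11.1% and 6.59% of all genes). The calls of Elavl1 in macrophages and Zfp36l1 in osteoclasts were lost in TPM (0.03, adjusted p = 0.603 and 0.34, adjusted p = 0.0592). Zfp36, which encodes tristetraprolin, rose from 21.6 to 320.3 FPKM in macrophages (3.83, adjusted p = 1.30e-13) and from 21.8 to 34.5 FPKM in osteoclasts (0.64, adjusted p = 8.70e-06). Zc3h12a, whose product Regnase-1 cleaves Il6 and Il12b mRNA, rose from 8.4 to 108.7 FPKM (3.55, adjusted p = 1.08e-13) and from 5.68 to 33.2 FPKM (2.36, adjusted p = 1.79e-10). Arid5a, which stabilises Il6 mRNA and was admitted to the test only through LPS-treated macrophages, rose from 0.612 to 15.7 FPKM (3.37, adjusted p = 2.90e-12) and from 0.182 to 0.515 FPKM (0.35, adjusted p = 0.00730). Zfp36l2 fell in macrophages from 115.8 to 13.5 FPKM (-3.01, adjusted p = 1.30e-13) and in osteoclasts from 58.1 to 38.3 FPKM (-0.59, adjusted p = 2.17e-06).

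**Figure D4:**
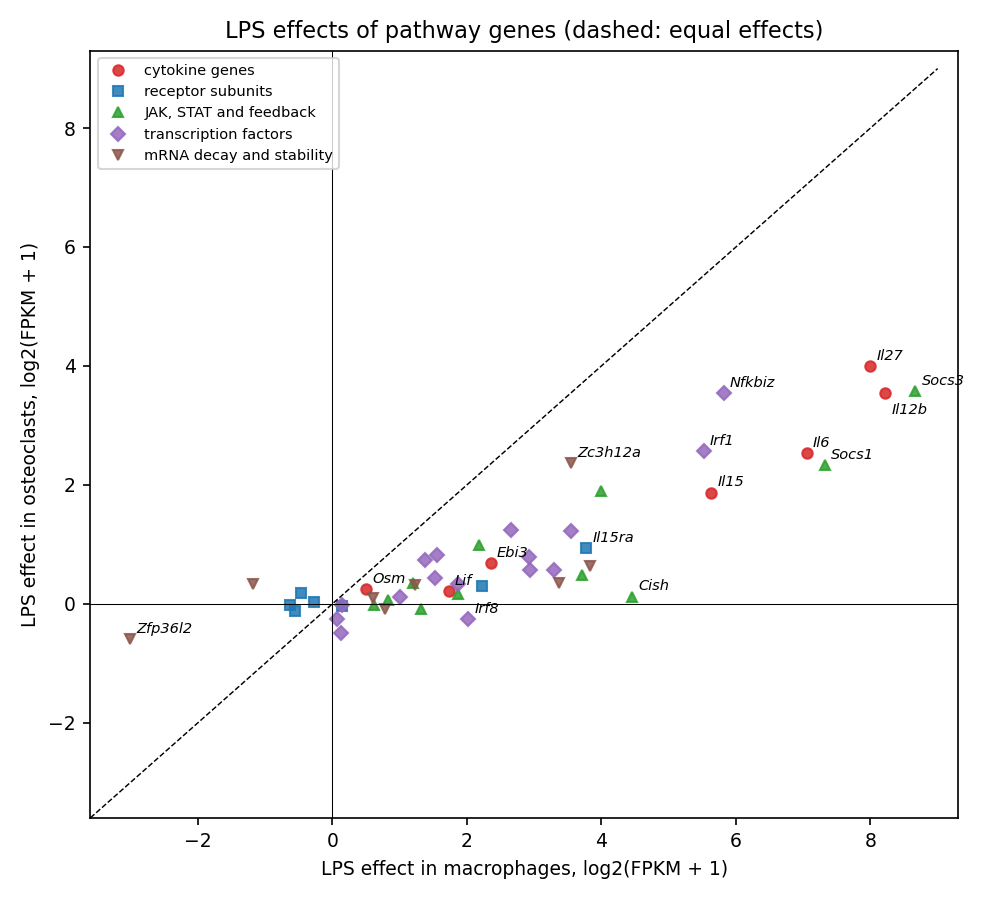
LPS effect in osteoclasts (vertical axis) against that in macrophages (horizontal axis), each as the limma difference in log2(FPKM + 1), for the 7 tested cytokine genes and the tested genes of 4 lists; the dashed line marks equal effects. All 7 cytokine genes lie below the line, as do Socs3, Socs1 and Irf1, though for Osm the order was reversed in TPM. Lif, Osm, Cish and Irf8 lie near 0 on the vertical axis.

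By the Pearson correlation of log2(FPKM + 1) over the 12 libraries, which form only 4 groups and share their depth within a library, the patterns most like that of Il6 were Cxcl9 (0.9993) and Socs1 (0.9992). For Il12b they were Cd69 (0.9994) and Bcl2a1d (0.9989), and for Il27 the interferon-induced genes Ifit3b (0.9989) and Usp18 (0.9987). Il15 was most like Ifi205 (0.9989) and Socs1 (0.9987), and Ebi3 most like Tifa (0.9988) and B2m (0.9986). Lif, high in osteoclasts, was most like Prr13 (0.9988) and Fgd6 (0.9971). Osm had the lowest values, with Itpkb (0.9859) and Hnrnpab (0.9853). Among the cytokine genes themselves, Il6 and Il15 had r = 1.00, Ebi3 and Osm 0.96, and Lif and Osm -0.76.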

How the data were processed

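The 12 mouse RNA-seq libraries were grouped by their sample titles. The submitters' processing notes name fastp, STAR, featureCounts and DESeq2 and the build mm10; versions and roles are not given in the sources used here. The authors deposited FPKM values for 54532 Ensembl genes. Their column sums ran from 255852 to 408994, and the scale to the typical gene is inferred from the values. Whole reads, within a tolerance of 0.02, were recovered from the steps of the values, at the GENCODE M21 gene length for 96.8% of the 25854 genes above 0. Gene positions and 3′ UTRs are from GENCODE M21, and promoters from RefSeq.

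All genes reaching 1 FPKM in 3 or more libraries entered a single linear model of the 4 group means on log2(FPKM + 1), with a pseudocount of 1 (R 4.3.3; limma 3.58.1; moderated variances with a trend). The steps were tested on simulated data. Alternatives were a pseudocount of 0.1, other filters on low values, other scalings, voom on recovered reads, library weights, no variance trend, a replicate block, only the groups compared, and each library left out. The main fit did not pair libraries by replicate number, and the labels do not say what equal numbers share. The 9 genes and the lists were chosen with earlier results of these data known. All 9 genes are named; of other lists, up to 4 called genes per contrast with the largest difference and a mean of at least 1 FPKM, others where a result turns on them, and the 2 genes most correlated with each. Intervals and floors cover counting error only.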

Additional observations from a re-analysis of the deposited data

Results flagged for a closer look

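The LPS effect in osteoclasts differed from that in macrophages, by the interaction term of the limma fit, for 6 of the 7 cytokine genes tested, beside 56.6% of all genes tested. Of the 6, Il6, Il12b and Il27 entered the test only through LPS-treated libraries, so the count is a description. The difference, osteoclast minus macrophage on the log2(FPKM + 1) scale, was -4.53 for Il6, -4.67 for Il12b, -4.00 for Il27 and -3.76 for Il15. It was -1.67 for Ebi3 and -1.51 for Lif. As log2 ratios of mean FPKM the differences were -2.28 for Il27 (-1.61 without untreated osteoclast replicate 1), -3.84 for Il15, -1.57 for Ebi3 and -2.76 for Lif, so the order of Il27 and Lif depended on the scale. Il6 and Il12b have no such ratio, since their untreated groups had no or almost no reads. Their differences above repeat those between the LPS-treated cell types. In each of the 6 the 3 LPS-treated macrophage libraries were all above the 3 untreated ones. Of all genes tested, 74.0% had no overlap between these groups, in either direction. Lif is the gene among the 6 that started from the higher level in osteoclasts.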

How the results depend on the processing

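Of 793 values over the 7 tested genes, the comparisons and the alternatives, 784 kept their direction and their side of the threshold, 2 lost a call, 4 gained one and 3 changed direction. Those that changed direction were the Osm difference of LPS effects, 0.33 in TPM, and the Il15 difference between untreated cell types, 0.06 after quantile normalization and -0.22 to 0.01 with 1 library left out, the 0.01 without untreated osteoclast replicate 3; none of the 3 was called, and the cause was not tested. Rescaling to TPM moved the median of all genes to -0.55 for LPS in macrophages, -0.38 and 0.12 between cell types without and with LPS and 0.51 for the difference of LPS effects, and quantile normalization moved the first to -0.14. The number of the cytokine genes called stayed within 1.5 times that reported under every alternative run. Over all genes, a filter at a mean of 5 FPKM tested 6430 genes in place of 11335 and called 4851 for LPS in macrophages, 5427 and 5694 between cell types and 4018 for the difference of LPS effects, in place of 7921, 8822, 9509 and 6413.

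Same-numbered libraries showed little shared deviation (r from -0.07 to 0.1 over 18 pairs), which does not settle whether they were paired. A fit with the replicate number as a block gave the same counts, 7 and 5 for LPS in macrophages and osteoclasts, 4 and 7 between cell types without and with LPS, and 6 for the difference of LPS effects. Depth limits Il12a and Il23a, which had at most 8 and 13 reads in a library. No batch is given in the labels.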
